A study of Mus musculus with 4 samples.

Results

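Calcium and magnesium that escape reabsorption upstream are recovered in the distal nephron, and 10 of the 31053 genes in the count tables that carry out or regulate this recovery were followed from segment to segment and between genotypes. They were chosen by name for their known roles, with earlier results of these data known, and were all found in the tables: Trpv5, Calb1, S100g, Slc8a1, Atp2b1, Atp2b4, Trpm6, Cnnm2, Casr and Stc1. The nuclei came from medulla-enriched kidney slices of 4 male mice aged 12 weeks, 1 library per mouse. Both groups were homozygous for a floxed Tfap2a allele (Tfap2aFlox/Flox): 2 control mice carried no Cre, and 2 knockout mice carried Hoxb7Cre (Hoxb7Cre+;Tfap2afl/fl). Hoxb7Cre acts in the ureteric lineage that gives rise to the collecting duct, whereas the thick ascending limb and the distal convoluted tubule (DCT) come from another lineage. Tfap2a encodes an AP-2 transcription factor.

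In the DCT and the connecting tubule (CNT), calcium enters the cell through the apical channel TRPV5, is carried through the cytosol by calbindin-D28k (Calb1) and calbindin-D9k (S100g), and leaves across the basolateral membrane through the sodium-calcium exchanger NCX1 (Slc8a1) and the plasma membrane calcium pumps PMCA1 (Atp2b1) and PMCA4 (Atp2b4). Magnesium enters DCT cells through TRPM6, and CNNM2 takes part in its basolateral handling. The calcium-sensing receptor (Casr) adjusts divalent cation reabsorption in the thick ascending limb to blood calcium, and stanniocalcin-1 (Stc1) is a secreted glycoprotein hormone linked to calcium and phosphate balance. Parathyroid hormone and vitamin D control the calcium route.

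AP-2 factors bind GC-rich palindromes, and the promoters of the genes were therefore searched for GCCNNNGGC, which reads the same on both strands. RefSeq promoter sequences of GRCm38.p6, 250 bases before to 50 bases after the start, were at hand for 8 of the 10 genes (9 promoters). The motif was found in 1 of these 9 promoters, that of Trpm6, against 16.6% of the 32851 promoters of all genes. The table gives 1 start for Trpm6, which lies 19553 bases inside the gene's annotated span, so that other starts of the gene were not searched. The 250 bases before this start (chr19:18749480-18749729, + strand) are shown with the match in capitals, 68 bases before it. The matching 250 bases of Slc8a1 (chr17:81738388-81738637, - strand), one of the genes called between genotypes below, hold no match of this form. Forms with another spacing were not searched, and the Slc8a1 window holds gccgaaaggc, which has a longer one.
Trpm6: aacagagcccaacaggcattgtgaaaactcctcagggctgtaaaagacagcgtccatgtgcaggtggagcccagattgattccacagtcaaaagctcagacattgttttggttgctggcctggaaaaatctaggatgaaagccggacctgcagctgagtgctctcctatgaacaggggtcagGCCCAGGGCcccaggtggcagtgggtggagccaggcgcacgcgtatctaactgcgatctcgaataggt
Slc8a1: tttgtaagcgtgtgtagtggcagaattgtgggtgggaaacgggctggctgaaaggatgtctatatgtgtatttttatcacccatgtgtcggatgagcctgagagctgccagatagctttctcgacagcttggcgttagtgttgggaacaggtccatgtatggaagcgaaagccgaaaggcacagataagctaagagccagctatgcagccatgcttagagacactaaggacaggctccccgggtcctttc
The letters of these windows say nothing about binding of the factor.

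The 4 libraries held between 22179410 and 44964099 unique molecular identifiers (UMIs, 1 per captured RNA molecule). After filtering, 27343 nuclei remained, with a median of 2506 to 2797 UMIs per nucleus in the 4 libraries. Proximal tubule nuclei made up 36.2 to 55.1% of each library although cortex had been trimmed away. Segments are clusters of nuclei named from marker genes, so that each name stands for nuclei like that segment, and the 10 genes took no part in the clustering or the naming. DCT nuclei numbered 264 and 166 in the controls and 319 and 246 in the knockouts. CNT nuclei numbered 115 and 84 in the controls and 194 and 115 in the knockouts. As shares of each library, the DCT made up 3.41 and 3.06% in controls against 3.99 and 3.98% in knockouts. The CNT made up 1.49 and 1.55% against 2.43 and 1.86%, and the inner medullary collecting duct 2.82 and 4.40% against 1.44 and 1.68%. The Aqp3-high principal cells described below overlapped (0.698 and 2.28% against 0.788 and 0.599%). The part of these shares in the results below was not tested. Levels are given as CPM, the UMIs of a gene per 1000000 UMIs of that segment in that mouse, always in the order control mouse 1, control mouse 2, knockout mouse 1, knockout mouse 2. Since the method counts the 3′ ends of RNAs, levels were compared between segments or mice for the same gene and not between genes. Pairs of libraries shared 7 to 18 barcodes. Tfap2a RNA in principal cells was 57.2 and 96.8 CPM in the control mice and 65.1 and 106 CPM in the knockout mice, which does not check the deletion, because tags from the 3′ end need not show whether the floxed exons are present.

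The calcium route came on in steps along the tubule. The DCT divided into an early part of 758 nuclei with Slc12a3 and low sodium channel subunits and a late part of 237 nuclei with both, and the CNT into a Klk1-high part of 264 nuclei and an Hsd11b2-high part of 244 nuclei. These finer segments were set after the data were seen. Together with the cortical collecting duct subcluster (CCD, 278 nuclei), they gave an ordered series in which the level of each gene could be followed.

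**Figure D1:**
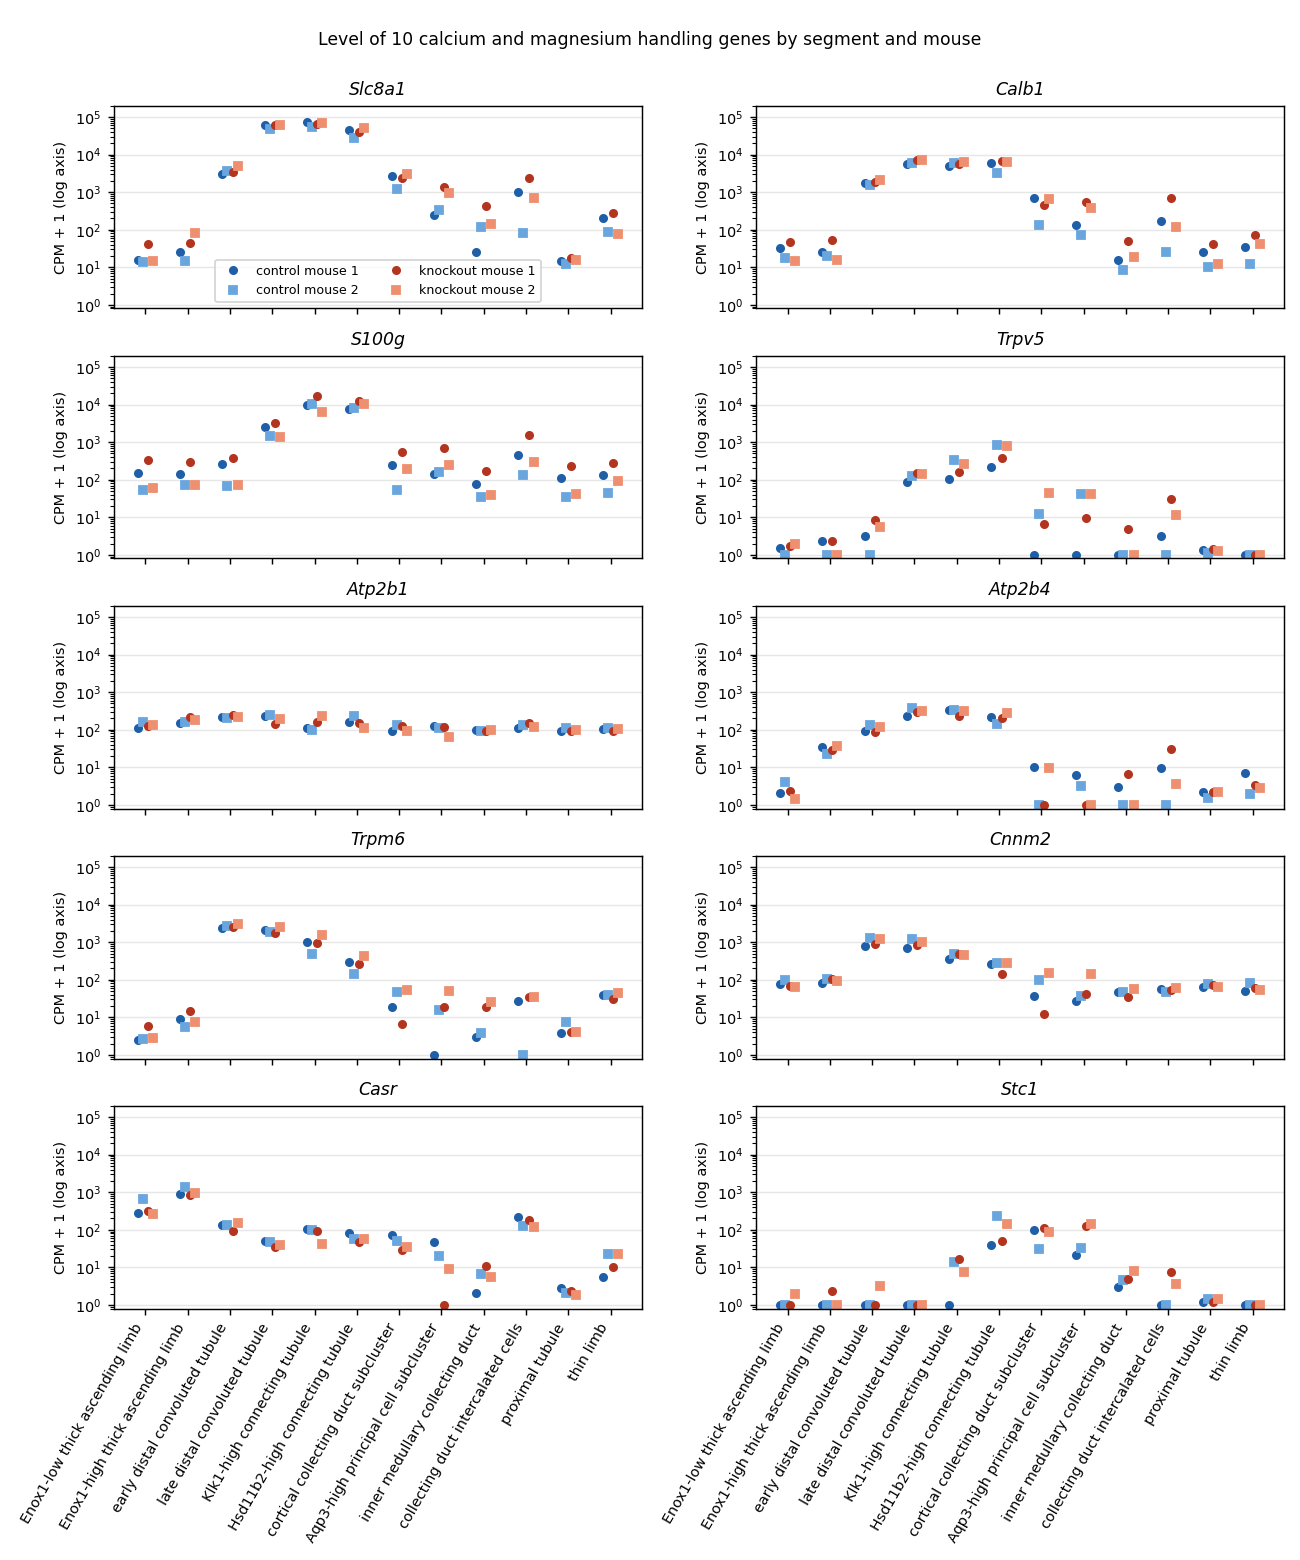
Level of each of the 10 genes (CPM + 1, log axis) by segment, with 1 point per mouse and color by genotype. Calb1, Slc8a1, S100g and Trpv5 peaked in the late DCT or the CNT, Trpm6 and Cnnm2 in the DCT, and Casr in the Enox1-high thick ascending limb.

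Trpv5, the apical entry channel gene (chr6:41651661-41681224 of GRCm38.p6, as are the gene positions that follow), was close to 0 in the early DCT (2.22, 0, 7.70 and 4.55 CPM). It rose to 84.7, 123, 154 and 138 CPM in the late DCT, without overlap between the 2 parts. In the Klk1-high CNT it stood at 106, 331, 161 and 265 CPM. The Hsd11b2-high CNT held the highest levels, 219, 832, 385 and 790.4 CPM, and here the lowest mouse was below the highest mouse of the Klk1-high CNT. In the CCD, Trpv5 fell back to between 0 and 42.6 CPM. No Trpv5 UMI was seen among the 2753857 UMIs of the thin limb, which allows a level of up to 1.09 CPM (3 UMIs, counting error only).

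Calb1 (chr4:15881264-15906709), whose product is the cytosolic buffer that ferries calcium across the cell, was already at 1755, 1552, 1899 and 2164 CPM in the early DCT. It reached 5748, 6072, 7199 and 7086 CPM in the late DCT. The late DCT, the Klk1-high CNT (4889, 6092, 5723 and 6313 CPM) and the Hsd11b2-high CNT (5949, 3252, 6730 and 6354 CPM) overlapped one another. Calb1 then dropped to 695, 136, 452 and 639 CPM in the CCD, and to 14.3, 7.35, 48.3 and 18.0 CPM in the inner medullary collecting duct. In the late DCT, 92.9 to 100% of nuclei had a Calb1 UMI (median 2118 to 3061 UMIs per nucleus). In the proximal tubule, where calbindin-D28k is not known to be used, the share was 3.35 to 10.5% (median 3025 to 3699 UMIs per nucleus). Whether these UMIs came from free RNA was not tested.

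S100g (chrX:162961992-162964599), the other vitamin D-dependent buffer gene, had its step later than Calb1. It stood at 258, 65.8, 385 and 72.8 CPM in the early DCT, overlapping the proximal tubule (109, 32.7, 230.3 and 41.6 CPM). In the late DCT it was 2521, 1468, 3232 and 1356 CPM. The Klk1-high CNT had 9971, 10618, 16690 and 6392 CPM and the Hsd11b2-high CNT 7493, 8046, 12464 and 10148 CPM, overlapping each other and separate from the late DCT. Knockout mouse 1 had the highest level in all 4 of these segments.

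Slc8a1 (chr17:81373105-81738387), whose exchanger extrudes calcium on the blood side, was highest in the Klk1-high CNT, at 72283, 53634, 66647 and 71319 CPM. The late DCT (61037, 46612, 59571 and 60356 CPM) and the Hsd11b2-high CNT (44189, 28306, 40739 and 50494 CPM) followed, each overlapping the next. The early DCT was far below them, at 3084, 3679, 3378 and 5087 CPM. The CCD kept 2772, 1193, 2333 and 2956 CPM, whereas the proximal tubule had 11.2 to 17.2 CPM. Slc8a1 was also seen at 254 to 976 CPM in the immune cells and at 182 to 655 CPM in interstitial cells.

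The calcium pumps differed from each other in their range. Atp2b1 (chr10:98914630-99026143), the widely expressed pump gene, was present in every segment, from a control mean of 95.4 CPM in the inner medullary collecting duct to 494 CPM in immune cells, and the DCT had 221, 215, 221 and 208 CPM. Atp2b4 (chr1:133702674-133801059) followed the distal pattern, with 233, 369, 289 and 308 CPM in the late DCT and 329, 331, 234 and 318 CPM in the Klk1-high CNT. In the early DCT Atp2b4 was 91.1, 132, 88.6 and 116 CPM, close to endothelial cells at 93.4, 86.5, 62.5 and 122 CPM. Within the thick ascending limb it was seen in the Enox1-high part (22.2 to 36.1 CPM) and hardly in the Enox1-low part (0.47 to 2.97 CPM).

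The magnesium genes ran in the opposite order. Trpm6 (chr19:18730177-18892521), the apical magnesium channel gene, was highest in the early DCT at 2435, 2758, 2521 and 3104 CPM. It was 2097, 1857, 1794 and 2508 CPM in the late DCT, overlapping the early part. It stepped down to 1042, 493, 948 and 1562 CPM in the Klk1-high CNT and to 300, 142, 266 and 424 CPM in the Hsd11b2-high CNT, with no overlap from the late DCT on. Cnnm2 (chr19:46756834-46878580) took the same course, with 793, 1302, 919 and 1238 CPM in the early DCT, 713, 1222, 866 and 1002 CPM in the late DCT, 366, 493, 472 and 463 CPM in the Klk1-high CNT and 256, 274, 144 and 278 CPM in the Hsd11b2-high CNT. In the thick ascending limb, Cnnm2 was 70.7 to 97.6 CPM, where Trpm6 was 2.31 to 7.84 CPM. This level of Cnnm2 was not particular to the limb. It overlapped the proximal tubule (61.8 to 75.8 CPM) and the thin limb (48.8 to 78.6 CPM).

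Casr (chr16:36490585-36562141), the sensor gene, peaked upstream of the calcium route. The Enox1-high part of the thick ascending limb had 901, 1338, 838 and 948 CPM and the Enox1-low part 282, 665, 324 and 270.3 CPM, without overlap. Casr was 133, 135, 90.5 and 148 CPM in the early DCT and 49.4, 47.4, 33.7 and 39.3 CPM in the late DCT. Casr was seen again in the intercalated cells, in 1 of their 2 clusters. The cluster high in Slc26a4, the gene of the anion exchanger pendrin, had 359, 383, 285 and 246 CPM of Casr, whereas the cluster high in Slc4a1, the gene of the anion exchanger AE1, had 16.0, 19.1, 0 and 18.0 CPM.

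Stc1 (chr14:69029289-69041401), the hormone gene, was nearly absent from the DCT. The late DCT had no Stc1 UMI among 607825 UMIs, which allows up to 4.94 CPM, and the whole DCT had 1. Stc1 appeared in the Hsd11b2-high CNT at 37.5, 227, 50.3 and 139 CPM. It went on into the CCD (101, 30.2, 110.3 and 85.2 CPM) and the Aqp3-high principal cells (20.9, 32.3, 128 and 145 CPM). The ranges of these 3 segments overlapped. Endothelial cells had 19.8 to 46.0 CPM.

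To test these steps, UMI sums per mouse were compared between neighbouring segments with edgeR's quasi-likelihood test, adjusted by Benjamini-Hochberg over all genes tested, with an adjusted p under 0.05 called. From the thick ascending limb to the DCT, 8 of the 9 genes tested rose and 1 fell, where 21.8% of all genes tested were called. Slc8a1 rose by 9.53 on the log2 scale (SE 0.18), Trpm6 by 9.33 (SE 0.18) and Calb1 by 6.92 (SE 0.15). Trpv5 rose by 5.79 (SE 0.44, adjusted p = 1.47e-38), from 0 to 0.922 CPM in the thick ascending limb. The other genes that rose were Atp2b4 (4.08), Cnnm2 (3.68), S100g (2.44) and Atp2b1 (0.59), and Casr fell by 2.33.

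From the DCT to the CNT, 6 of the 10 genes rose and 3 fell, against 14.5% of all genes called. S100g rose by 3.94 (SE 0.13) and Trpv5 by 3.26 (SE 0.17, adjusted p = 7.36e-62) on the log2 scale. Slc8a1 (1.60), Calb1 (0.90) and Atp2b4 (0.73) rose less, and Stc1 rose from 1 UMI in the DCT of the 4 mice to 18.7, 97.8, 34.2 and 74.4 CPM in the CNT, a change for which no fold is given because of that 1 UMI. Trpm6 fell by 2.01 (SE 0.12) and Cnnm2 by 1.57 (SE 0.12), and Atp2b1 fell by 0.52. Casr had a log2 change of -0.49 with an adjusted p of 0.06. Atp2b1 was not called in the 2 control mice alone (adjusted p = 0.123) or without knockout mouse 1 (adjusted p = 0.0532).

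From the CNT to the collecting duct principal cells, all 10 genes fell, against 35% of all genes called in either direction. The log2 changes were -6.62 for Slc8a1, -6.61 for Atp2b4, -6.23 for S100g, -5.61 for Calb1, -5.58 for Trpm6 and -5.51 for Trpv5. They were smaller for Cnnm2 (-2.83), Casr (-2.67), Stc1 (-0.94) and Atp2b1 (-0.66). The Atp2b1 change was not called in the 2 control mice alone (adjusted p = 0.066), nor that of Stc1 without control mouse 2 (-0.27, adjusted p = 0.561).

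**Figure D2:**
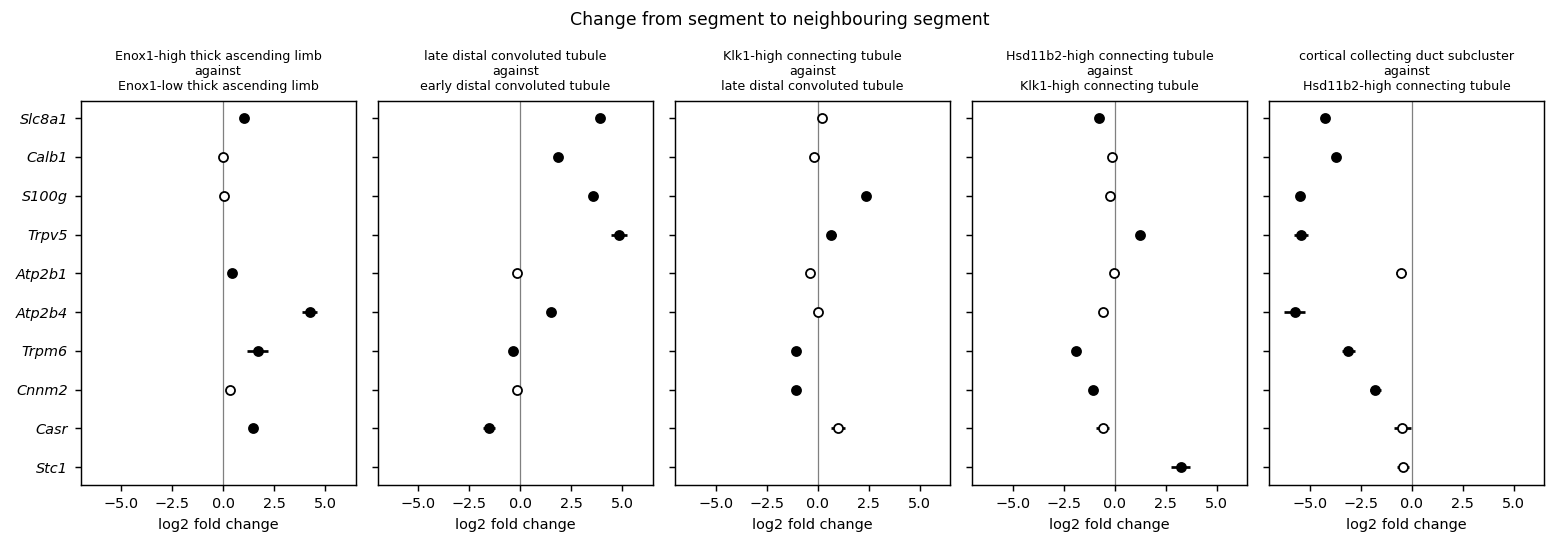
Log2 fold change of each gene between neighbouring segments (points) with its standard error (bars), filled where the adjusted p is under 0.05. Trpv5, Slc8a1, S100g, Calb1 and Atp2b4 rise from the early to the late DCT while Trpm6 and Cnnm2 fall from the late DCT onward, and 7 of 10 genes fall into the cortical collecting duct.

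The finer steps place these changes. Between the Enox1-low and the Enox1-high thick ascending limb, 5 of 8 genes tested were higher in the Enox1-high part, against 13.7% of all genes called: Atp2b4 by 4.23, Trpm6 by 1.69, Casr by 1.46, Slc8a1 by 1.02 and Atp2b1 by 0.44 on the log2 scale. From early to late DCT, 5 of 9 genes rose and 2 fell, against 5.04% of all genes. Trpv5 rose by 4.83 (SE 0.41), Slc8a1 by 3.93 (SE 0.11), S100g by 3.56 (SE 0.13), Calb1 by 1.83 (SE 0.11) and Atp2b4 by 1.51 (SE 0.18). Casr fell by 1.55 (SE 0.28) and Trpm6 by 0.38 (SE 0.11, adjusted p = 0.012). The log2 change of Cnnm2 was -0.15 (SE 0.12, adjusted p = 0.727). The early and late parts were clusters of nuclei made without these genes, and the levels of sodium channel subunits served to name them. Other genes that may vary together with these genes took part in the clustering, so that the split is not independent of them.

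From the late DCT to the Klk1-high CNT, 2 of 9 genes rose and 2 fell, against 3.47% of all genes. S100g rose by 2.35 (SE 0.11) and Trpv5 by 0.68 (SE 0.22, adjusted p = 0.0458), while Trpm6 fell by 1.06 and Cnnm2 by 1.05. Slc8a1 (0.22, SE 0.10, adjusted p = 0.312) and Calb1 (-0.18, SE 0.10, adjusted p = 0.56) were not called. From the Klk1-high to the Hsd11b2-high CNT, 2 of 10 genes rose and 3 fell, against 3.98% of all genes. Stc1 rose by 3.23 (SE 0.45) and Trpv5 by 1.26 (SE 0.18), and Trpm6 fell by 1.90, Cnnm2 by 1.06 and Slc8a1 by 0.79. From the Hsd11b2-high CNT to the CCD, 7 of 10 genes fell, against 7.08% of all genes. The log2 changes were between -5.75 (Atp2b4) and -1.80 (Cnnm2), and that of Stc1 was -0.44 (SE 0.31, adjusted p = 0.587). Nuclei of the same mouse enter both sides of these comparisons.

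The wider pathway was described with 4 lists of other genes, which, unlike the 10 genes, took part in the clustering, so that their counts between segments are descriptions, to be read beside the 21.8% of all genes called in either direction between DCT and thick ascending limb. Of 13 genes of hormonal calcium control, 7 of the 11 tested were higher in the DCT than in the thick ascending limb and 1 was lower. They included Vdr, the vitamin D receptor (3.37 on the log2 scale), and Kl, the FGF23 co-receptor Klotho (2.98). Both were higher again in the CNT than in the DCT (Vdr 1.28, Kl 1.40) and lower in principal cells than in the CNT (Vdr -5.48, Kl -4.98), as was the parathyroid hormone receptor gene Pth1r (-2.72). From DCT to CNT, 4 of the 10 hormonal genes tested were higher and 1 lower, against 14.5% of all genes called. From CNT to principal cells, 5 of 9 were lower and 3 higher, against 35% of all genes. The 3 were Rxra (1.83), Sgk1 (0.92) and Gnas (0.89). Of 6 paracellular genes, 3 were lower in the DCT than in the thick ascending limb: Cldn16 (-5.08), Cldn10 (-4.04) and Cldn19 (-3.36), which encode tight junction claudins. Of 14 other calcium genes, 3 of 10 tested were higher and 2 lower in the DCT, with Atp2b2, a further calcium pump, at 4.91 and the channel gene Trpv6 at 4.49. Of 23 other magnesium genes, 5 of 22 tested were higher and 3 lower. Trpm7, the channel related to Trpm6, was higher in the DCT than in the thick ascending limb by 2.92 and lower in the CNT than in the DCT by a log2 change of -3.004.

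Patterns most like those of the 10 genes were sought over 14 segments of the control mice, among 9032 genes reaching 50 CPM in at least 1 segment, by Pearson's r of log2(CPM + 1). The values are descriptions, and genes of a library share its depth. Calb1 and Slc8a1 were each other's closest gene (r = 0.924). For S100g it was Klk1 (0.906), for Trpv5 Pgam2 (0.940), and for Trpm6 Tdrd3 (0.903) ahead of Slc12a3 (0.890) and Cnnm2 (0.888). Cnnm2 was also closest to Tdrd3 (0.947). Casr was closest to Atg4d (0.921), Atp2b4 to Vegfd (0.887), Atp2b1 to Fcer1g (0.891) and Stc1 to Cav1 (0.883).

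To ask whether loss of Tfap2a in the collecting duct went with a change of these genes, knockout and control sums were compared in each of 15 segments and cell classes (2 mice against 2). Outside the Aqp3-high principal cells, none of the genes was called in the other 14 (adjusted p from edgeR at least 0.507 in all of them). Over these 14, 17 of 107 tests of the genes (15.9%) had an unadjusted edgeR p under 0.05, against 2.83% of the tests of all genes. The whole class of principal cells is 1 of the 14 and contains the Aqp3-high nuclei. This class gave 5 of the 17, in 10 tests. It also contains the nuclei of the CCD and the inner medullary collecting duct, which gave 1 and 3 of the 17 as segments of their own. A gene tested in several segments counts once for each, and the segments share the 4 libraries. With the replicate number as a block, 4 of the genes were called in principal cells, 3 in intercalated cells, 2 in the thin limb and 1 in the epithelium of the pelvis, although the labels do not pair the mice. Without a filter beyond 1 UMI, 1 to 4 were called in 6 of these classes. DESeq2 called 2 genes in the whole class of principal cells, which contains the Aqp3-high nuclei, and none in the others. Of all genes tested, 0.0135% were called in the thick ascending limb (0.00833% in its Enox1-high part), 0.0083% in the inner medullary collecting duct, 0.00563% in the proximal tubule and 0.016% in endothelial cells. In the other classes and in the finer segments outside the Enox1-high part, 0% were called.

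None of the genes was called in the DCT or CNT, where the calcium route is strongest. In the DCT, Trpv5 had the largest log2 change, 0.72 (SE 0.40, adjusted p = 0.999), with 21.97, 31.7, 49.5 and 38.9 CPM. Calb1 there was 2711, 2716, 3415 and 3434 CPM, and Slc8a1 was 16953, 14740, 19446 and 19341 CPM. Both knockout mice were above both control mice for these 3 genes. The share of all genes that separate this way was not counted in the DCT. It was 17% in the Aqp3-high principal cells and 12.5% in the inner medullary collecting duct. In the CNT, Trpv5 was 162, 530.1, 279 and 534 CPM, where the mice of each genotype spread as widely as the genotypes. Trpm6 in the CNT was 672, 353, 587 and 979.7 CPM. The median log2 change of the genes tested was 0.08 in the DCT and 0.16 in the CNT, against -0.01 and 0.00 over all genes. Casr in the thick ascending limb was 451, 815, 500.3 and 447 CPM, with control mouse 2 above the others.

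**Figure D3:**
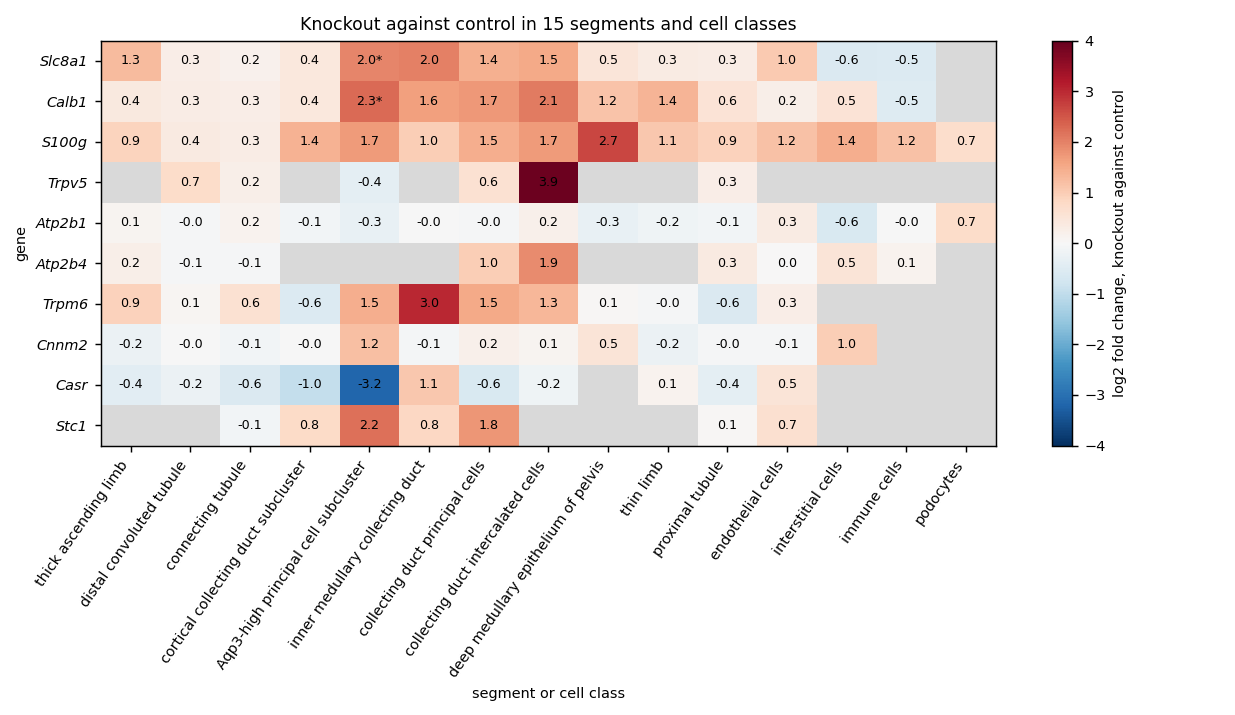
Log2 fold change, knockout against control, of the 10 genes in 15 segments and cell classes, with an asterisk where the adjusted p is under 0.05 and grey where the 4 mice held under 10 UMIs. Calb1 (2.26) and Slc8a1 (1.95) carry asterisks in the Aqp3-high principal cells, and no other cell of the map does.

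The Aqp3-high principal cells were the exception. They held 54 and 124 nuclei in the controls and 63 and 37 in the knockouts. Calb1 was 130 and 73.2 CPM in the control mice and 549.9 and 372 CPM in the knockout mice, and the groups did not overlap. The log2 change was 2.26 (SE 0.33, edgeR adjusted p = 0.00551). Slc8a1 was 245 and 334 CPM in the control mice and 1390 and 921 CPM in the knockout mice, again without overlap, with a log2 change of 1.95 (SE 0.30, adjusted p = 0.00685). These were 2 of the 9 genes tested, and 0.0508% of all genes (5 of 9837) were called.

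Stc1 and S100g moved the same way without being called. Stc1 was 20.9 and 32.3 CPM in the control mice (4 and 15 UMIs) and 128 and 145 CPM in the knockout mice (29 and 18 UMIs), a log2 change of 2.19 with an adjusted p of 0.0592. At median depths of 3011 to 3378 UMIs, a Calb1 UMI was found in 20.4% and 15.3% of control nuclei and in 47.6% and 29.7% of knockout nuclei. For Slc8a1 the shares were 37.0% and 52.4% against 58.7% and 54.1%, so that control mouse 2 and knockout mouse 2 lay close together. With each nucleus thinned to 1000 UMIs, they were 20.8% and 25% against 28.6% and 32.4%. An Stc1 UMI was found in 4 of 54 and 10 of 124 control nuclei and in 20 of 63 and 13 of 37 knockout nuclei. S100g was 141, 155, 708 and 250.3 CPM (log2 change 1.70, adjusted p = 0.132), and its log2 change was -0.25 in clusters made without integration of the libraries. Trpm6 (1.46), Cnnm2 (1.21), Atp2b1 (-0.31), Trpv5 (-0.39) and Casr (-3.17) had adjusted p of at least 0.937. Trpv5 rested on few nuclei, with the 19 UMIs of control mouse 2 in 0.806% of its nuclei. The median log2 change of the 9 genes was 1.46, against -0.02 over all genes tested.

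Even in the knockout mice the level in the Aqp3-high nuclei stayed far below that of the CNT, where Calb1 was 6256 and 6334 CPM and Slc8a1 52949 and 60670 CPM. It was near that of the adjoining CCD, where Calb1 was 136 to 695 CPM and Slc8a1 1193 to 2956 CPM over the mice. Calb1 of both knockout mice (549.9 and 372 CPM) lay within the CCD range. For Slc8a1, knockout mouse 1 (1390 CPM) lay within it and knockout mouse 2 (921 CPM) below it. The UMIs were unevenly spread over the nuclei. The 5 nuclei with the most Calb1 UMIs held 76% and 58.8% of them in the controls and 71.2% and 71.7% in the knockouts. For Slc8a1 the shares were 57.5%, 33.6%, 73.7% and 70.2%. Without these nuclei's UMIs of the gene, Calb1 was 31.3, 30.1, 158 and 105 CPM, and Slc8a1 was 104, 222, 365 and 275 CPM, so that the knockout mice remained above the control mice for both genes.

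**Figure D4:**
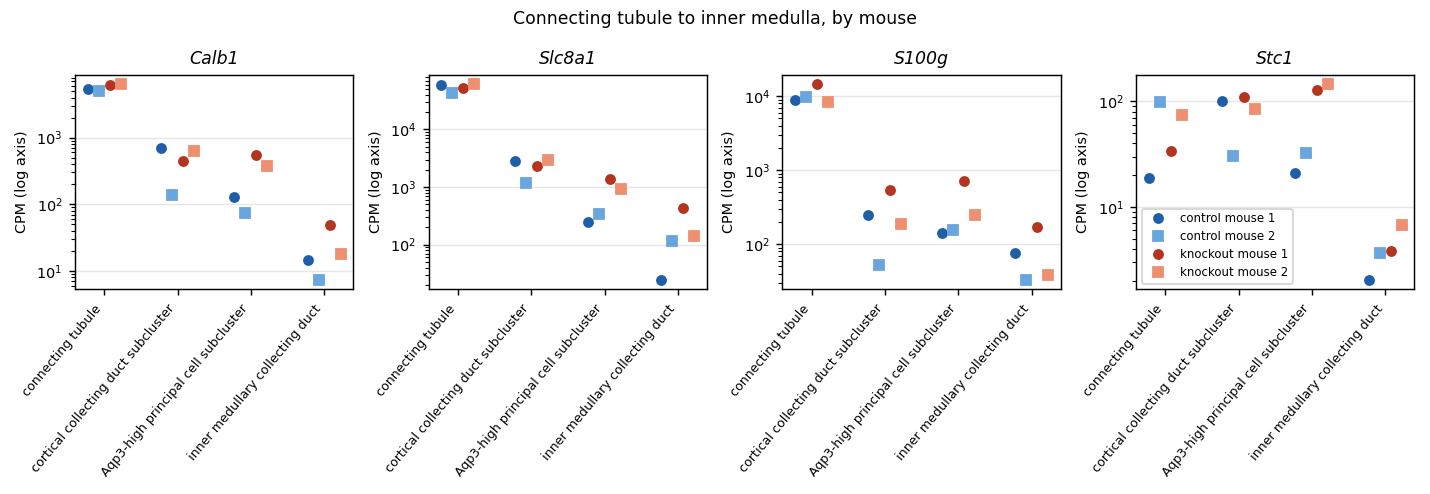
Calb1, Slc8a1, S100g and Stc1 (CPM, log axis) in the CNT, the cortical collecting duct, the Aqp3-high principal cells and the inner medullary collecting duct, with 1 point per mouse. The genotypes separate in the Aqp3-high principal cells for Calb1 (73.2 to 130 against 372 to 549.9 CPM), and overlap in the cortical collecting duct.

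Markers of neighbouring segments were measured in the same nuclei. The sum over 11 CNT markers was 4380, 4483, 5706 and 4708 CPM, with 4 of the 11 higher and 1 lower in both knockout mice, against 17% of all genes higher and 15.8% lower. Of the 11, Klk1 was 109.5, 10.8, 52.8 and 32.3 CPM and Egfem1 46.9, 10.8, 128 and 24.2 CPM. Both overlapped between the genotypes, so that neither was among the 4 that were higher. Klk1 and Egfem1 made up only a small part of the sum. Over all mice, Hsd11b2 was 2994 CPM in the Aqp3-high nuclei and 2141 CPM in the Hsd11b2-high CNT. Genes high in the CNT can thus be high in principal cells, and the sum cannot tell how much CNT RNA these nuclei held. The step below that leaves out nuclei used only Klk1 and Egfem1, and not the markers that were higher. The sum over 8 DCT markers was 198, 405, 418 and 267 CPM (1 higher, 1 lower), and none of the markers of either list was at 0. The sum over 8 thick ascending limb markers was 4484, 1296, 985 and 759 CPM, with 5 of 8 lower in both knockout mice. Leaving out nuclei with 2 or more UMIs of Klk1 and Egfem1 together (6, 1, 6 and 1 nuclei), a step chosen after the data were seen, left Calb1 at a log2 change of 1.90 (adjusted p = 0.0285) and Slc8a1 at 1.71 (adjusted p = 0.0376). Leaving out called doublets kept both calls. These were 5 and 4 control nuclei and 2 and 0 knockout nuclei, so that this step could hardly change the knockout levels.

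The free RNA of the droplets differed between the genotypes in the same direction. In near-empty droplets with under 100 UMIs, Calb1 was 183, 192, 294 and 443 CPM and Slc8a1 was 385, 307, 782 and 716 CPM. S100g was 861, 767, 1255 and 1679 CPM. For 8 of the 10 genes both knockout libraries were above both control libraries in these droplets, Casr and Stc1 being the exceptions, against 27.9% of the 14821 genes with at least 10 UMIs there. With an estimate of free RNA subtracted from the sums, Calb1 in the Aqp3-high nuclei was 122, 65.6, 576 and 366 CPM and Slc8a1 was 226, 335, 1449 and 916 CPM, and both calls were kept.

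**Figure D5:**
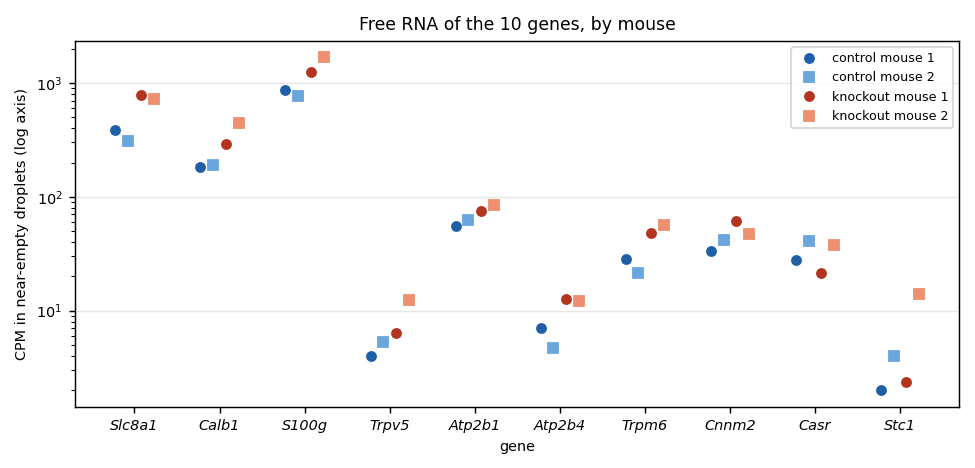
CPM of the 10 genes in near-empty droplets (log axis), with 1 point per mouse. Calb1, Slc8a1 and S100g are higher in both knockout libraries than in both control libraries, and Slc8a1 goes from 307 to 385 CPM in the control libraries to 716 to 782 CPM in the knockout libraries.

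The calls in the Aqp3-high principal cells depended on 1 mouse and on how the nuclei were grouped. Without knockout mouse 1, Calb1 had a log2 change of 1.95 (adjusted p = 0.0785) and Slc8a1 of 1.63 (adjusted p = 0.0865), and none of the genes was called, whereas without any one of the other mice 4 of them were. With clusters made without integration of the libraries, Calb1 had a log2 change of 1.04 (adjusted p = 0.8) and Slc8a1 of 0.28 (adjusted p = 1.0). With the 10 genes among those clustered, Calb1 had a log2 change of 1.94 (adjusted p = 0.0512), Slc8a1 of 1.45 (adjusted p = 0.0862) and Stc1 of 2.37, which was then called (adjusted p = 0.0335). Without integration the subcluster had 362 nuclei, among them 261 of the 278, 53 of the CCD, 11 of the Hsd11b2-high CNT and 37 from outside the principal cell and distal subclusters, and Slc8a1 was 274 and 1477 CPM in the control mice and 1260 and 951 CPM in the knockout mice.

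The genotype change was also compared between segments. The change in the Aqp3-high principal cells exceeded that in the CNT by 1.92 on the log2 scale for Calb1 (SE 0.46, edgeR adjusted p = 0.0385) and by 2.58 for Stc1 (SE 0.59, adjusted p = 0.0218), with 0.0849% of all genes called. Calb1 was not called without control mouse 1 (adjusted p = 0.608), control mouse 2 (1.0) or knockout mouse 1 (0.262), or with doublets left out (0.0834). Stc1 was not called without control mouse 2 (1.0) or knockout mouse 1 (0.271). For Slc8a1 the difference was 1.73 (SE 0.47, adjusted p = 0.169), and it was called with library sizes only, without a filter beyond 1 UMI, with free RNA subtracted and without knockout mouse 2 (adjusted p = 0.00471 to 0.0488). Against the CCD, none of the genes was called and 0% of all genes were, although the unadjusted p was 0.00305 for Calb1 and 0.00252 for Slc8a1. Against the inner medullary collecting duct, none was called, where 0.0699% of all genes were, and the differences were 0.55 (SE 0.56) for Calb1 and -0.09 (SE 0.35) for Slc8a1. With called doublets left out, the latter became 2.11 (adjusted p = 0.00177).

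In the other collecting duct cells the same genes were higher on average in the knockout mice without a call. In the CCD, Calb1 was 695, 136, 452 and 639 CPM, so that control mouse 1 was above both knockout mice. In the inner medullary collecting duct, Slc8a1 was 24.6, 115, 429 and 139.7 CPM and Trpm6 2.05, 2.75, 17.4 and 24.8 CPM, both without overlap between the genotypes. The Slc8a1 change there was 2.01 on the log2 scale (adjusted p = 1.0) and became -0.25 with called doublets left out. The sum over 8 DCT markers there was 231, 227, 429 and 403 CPM, with 7 of 8 higher in both knockout mice against 12.5% of all genes, and its part in the result was not tested. In intercalated cells, Calb1 was 175, 24.9, 718 and 120 CPM and Slc8a1 was 1018, 79.2, 2414 and 690.1 CPM, where mouse 1 of each genotype was the higher one. Their median log2 change over the genes tested was 1.52. That of the whole class of principal cells was 1.20, and that of the inner medullary collecting duct 1.02.

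Across the 15 segments and cell classes, S100g was above 0 in all 15, Calb1 in 13 of 14, Slc8a1 in 12 of 14 and Trpm6 in 9 of 12 where it was tested. Casr was above 0 in 3 of 11 and Atp2b1 in 5 of 15. The libraries are the same 4 in every segment, and the principal cell class contains its subclusters, so that these are not independent. S100g, Calb1, Slc8a1 and Trpm6 were also higher in the near-empty droplets of both knockout libraries, as was Atp2b1. The part of free RNA in these signs was not tested, and a like count over all genes was not made.

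Of the 4 pathway lists, 1 gene was called between genotypes in the 15 segments and cell classes. It was Egf, the epidermal growth factor gene, which promotes magnesium uptake through TRPM6 and is a thick ascending limb and DCT gene, lower in the Aqp3-high nuclei of the knockout mice by a log2 change of -3.83 (adjusted p = 0.00685). Slc12a1, the cotransporter gene of the thick ascending limb, fell there with it (-3.88), and 94.9% of the 255 Slc12a1 UMIs of control mouse 1 lay in 5 nuclei. For Egf, 5 nuclei held 92.2% of the 179 UMIs of control mouse 1 and 69.7% of the 99 of control mouse 2. Without the Egf UMIs of the top 5 nuclei of each mouse, Egf was 73.0, 64.6, 26.4 and 0 CPM. The 14 calcium genes (133 tests), the 6 paracellular genes (58 tests) and the 13 hormonal genes (135 tests) gave no call, and the 23 magnesium genes gave only Egf in 287 tests. Vdr, Kl and Pth1r were among the genes not called.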

How the data were processed

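Single-nucleus RNA-seq (10x Genomics 3′ v3.1) was available for 4 mice, 1 library each. The authors' deposited files hold UMI counts per gene and barcode, made with Cell Ranger 3.0.2 against mm10 per the labels and the study's methods. These raw counts were not normalized. The 10000 barcodes with the most UMIs per library were kept if they had more than 500 and fewer than 4000 genes and under 5% mitochondrial UMIs. The 4 libraries were integrated in R 4.3.3 with Seurat 5.3.0 and their nuclei clustered (2000 variable genes without the 10 genes, 30 dimensions, resolution 0.5) and named from markers. Principal cells, DCT and CNT were clustered again, with limits set after the data were seen. Clusters with damaged nuclei (0.47 to 8.10% of a library) or mixed markers (1.29 to 2.22%) were left out. Doublets (236 to 512 per library, called by neighbours among simulated pairs) stayed in, and were left out as an alternative.

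UMIs were summed per mouse and segment and tested with edgeR 4.0.16 (TMM, quasi-likelihood) over genes with at least 10 UMIs, and with DESeq2 1.42.0 as an alternative. Nuclei are not replicates. With 2 mice per group, the edgeR p-values between genotypes rest on the spread between these mice, with dispersions moderated over all genes tested. Those between segments rest on sums paired by mouse. Levels and 0 counts cover counting error only. The scripts were tested on simulated data. The 10 genes and the lists were chosen with earlier results of these data known. All 10 genes were named wherever they passed the filter, pathway genes where their adjusted p was under 0.05, and the 3 genes most like each, of which the closest are given. Alternatives were other normalizations, filters, groupings of nuclei, free RNA subtracted, a replicate block and leaving out each mouse. The finer segments and the removal of nuclei with Klk1 and Egfem1 RNA were added after seeing the data.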

Additional observations from a re-analysis of the deposited data

Results flagged for a closer look

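The genotype change of 2 genes differed between the Aqp3-high principal cells and the CNT, by edgeR's test of the difference itself, adjusted over all genes. For Calb1, the calbindin-D28k buffer, the difference of the log2 changes was 1.92 (adjusted p = 0.0385). Calb1 was 130 and 73.2 CPM in the control mice and 549.9 and 372 CPM in the knockout mice in the Aqp3-high nuclei, and 5417 and 4963 against 6256 and 6334 CPM in the CNT. For Stc1, the stanniocalcin-1 gene, the difference was 2.58 (adjusted p = 0.0218). Stc1 was 20.9 and 32.3 against 128 and 145 CPM in the Aqp3-high nuclei, and 18.7 and 97.8 against 34.2 and 74.4 CPM in the CNT. Calb1 lost its call without control mouse 1 (adjusted p = 0.608), control mouse 2 (1.0) or knockout mouse 1 (0.262), and with doublets left out (0.0834). Stc1 lost its call without control mouse 2 (adjusted p = 1.0) or knockout mouse 1 (0.271). The same mice give both segments, and each difference rests on 4 pairs of sums.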

How the results depend on the processing

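The number of the 10 genes called was unchanged in 241 of 276 alternatives and moved in 35. In the Aqp3-high principal cells it was 2, and it was 4 without a filter beyond 1 UMI, 4 with a replicate block, 4 with mitochondrial UMIs under 1%, 1 with the 10 genes among those clustered and 0 with clusters made without integration. In other segments, where it was 0, it was 1 in the thick ascending limb, 1 in the inner medullary collecting duct, 4 in all principal cells, 2 in intercalated cells, 1 in the epithelium of the pelvis and 1 in endothelial cells without a filter beyond 1 UMI. With a replicate block it was 4 in principal cells, 3 in intercalated cells, 1 in the pelvis and 2 in the thin limb. It was 2 in principal cells with DESeq2, and 1 in endothelial cells with mitochondrial UMIs under 1%. With doublets left out, the difference against the CNT fell from 2 genes to 1 and that against the inner medullary collecting duct rose from 0 to 1. Leaving out 1 mouse gave 0 to 4 in the Aqp3-high principal cells and intercalated cells, 0 to 2 in principal cells, endothelial cells and the difference against the CNT, and 0 to 1 in the inner medullary collecting duct, the pelvis and interstitial cells. The lone mouse of a group was then assumed to vary like the others. The numbers of all genes called moved more: in the Aqp3-high principal cells from 5 to 30 without the filter, 42 with the block and 3 to 28 with 1 mouse left out, and in principal cells from 0 to 27 without the filter, 55 with the block and 7 with DESeq2. The replicate numbers share no litter or batch in the labels. The deviations of same-numbered mice correlated at 0.255 to 0.752 over 14 segments, from 2 pairs, so the pairing stays a hint from the data. Between segments, 257 of 261 member values were unchanged, and no value reversed its sign while called. The cause of these changes was not tested. No value was had for interstitial cells with the 10 genes among those clustered, and for immune cells with mitochondrial UMIs under 1%. Depth limits the rarer genes in the Aqp3-high nuclei, with 2 UMIs of Atp2b4, 17 of Trpm6, 19 of Casr, 26 of Trpv5 and 66 of Stc1 over the 4 mice.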
